A study of Mus musculus with 15 samples.

Results

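This account describes the genes of the lymphotoxin and TNF receptor NF-κB pathway in mesenchymal cells of thymus and lymph node. The members were chosen by name, as the array's transcript clusters that carry exactly 1 gene symbol and whose symbol is Ltbr, Tnfrsf1a, Map3k14, Relb, Nfkb2, Nfkb1, Rela, Nfkbia, Tnfaip3 or Bcl3. Of these 10 genes 9 were measured, each by 1 transcript cluster, among 18718 genes in all, and Nfkb1 was not analysed here. Stromal cells of C57BL/6 mice aged 2 weeks were freed with liberase and DNase I and sorted as PDGFRβ-positive cells. The groups were PDPN+BP3+, PDPN+BP3- and PDPN- cells of lymph node and PDPN+BP3- and PDPN- cells of thymus. The antigen PDPN (podoplanin) is encoded by Pdpn and BP3 by Bst1. Cells of the PDPN- gate were in both tissues also positive for Ly51, which Enpep encodes. Each of the 5 groups was measured on 3 Mouse Gene 1.1 ST arrays from 3 separate experiments, 15 arrays in all. A lymph node pool came from 10 to 11 mice (inguinal, brachial and axillary nodes together) and a thymus pool from 3 mice, so the size of a pool and its tissue cannot be told apart. P-values measure the spread between the pools of these experiments.

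NF-κB is a family of transcription factors that work as dimers and are held inactive in resting cells. In the canonical pathway, the TNF receptor TNFR1 (Tnfrsf1a) activates the IκB kinase complex, IκBα (Nfkbia) is degraded, and dimers of RelA (Rela) and p50 (from Nfkb1) enter the nucleus. In the alternative pathway, the lymphotoxin β receptor (Ltbr) releases the NF-κB-inducing kinase NIK (Map3k14) from constant degradation, NIK drives the processing of p100 (Nfkb2) to p52, and p52 pairs with RelB (Relb). Several genes of the pathway, among them Nfkbia, Tnfaip3, Nfkb2, Relb and Bcl3, are themselves known NF-κB targets. Lymphotoxin signalling to mesenchymal organiser cells is required for lymph nodes to form, and in adult nodes it maintains the reticular stroma that makes chemokines for lymphocytes.

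Promoter windows of RefSeq (mouse build GRCm38.p6, 250 bases before to 50 bases after an annotated start) were available for 8 of the 10 genes, not for Relb and Nfkb1. Those shown belong to the members with a window whose group means spanned more than 1 log2 unit. Matches to the NF-κB consensus are in capitals. The window of Map3k14, whose group means had the second widest range of the members (1.91), holds no match. Sequences read 5′ to 3′ on the gene's strand. They are Nfkb2 (chr19:46304487-46304786, plus strand, the first of its 3 windows), Nfkbia (chr12:55492598-55492897, minus strand), Tnfaip3 (chr10:19015361-19015660, minus strand, the second of its 2 windows), Bcl3 (chr7:19822706-19823005, minus strand) and Map3k14 (chr11:103267352-103267651, minus strand).
Nfkb2: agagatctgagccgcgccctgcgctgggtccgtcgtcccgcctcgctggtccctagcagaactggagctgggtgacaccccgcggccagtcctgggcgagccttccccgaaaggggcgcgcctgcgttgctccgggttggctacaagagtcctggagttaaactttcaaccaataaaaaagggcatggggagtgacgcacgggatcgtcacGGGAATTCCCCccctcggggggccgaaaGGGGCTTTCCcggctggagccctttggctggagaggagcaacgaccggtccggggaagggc
Nfkbia: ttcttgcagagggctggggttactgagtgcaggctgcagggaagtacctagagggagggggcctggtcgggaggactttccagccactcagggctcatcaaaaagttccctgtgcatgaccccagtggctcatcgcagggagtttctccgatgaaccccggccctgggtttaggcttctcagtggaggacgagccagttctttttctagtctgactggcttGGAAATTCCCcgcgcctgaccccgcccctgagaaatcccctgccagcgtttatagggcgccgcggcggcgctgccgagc
Tnfaip3: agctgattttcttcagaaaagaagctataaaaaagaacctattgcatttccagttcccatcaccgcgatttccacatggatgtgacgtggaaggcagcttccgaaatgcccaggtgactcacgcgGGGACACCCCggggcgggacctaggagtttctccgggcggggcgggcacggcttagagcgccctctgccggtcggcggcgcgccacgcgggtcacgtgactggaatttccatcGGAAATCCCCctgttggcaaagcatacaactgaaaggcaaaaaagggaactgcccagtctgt
Bcl3: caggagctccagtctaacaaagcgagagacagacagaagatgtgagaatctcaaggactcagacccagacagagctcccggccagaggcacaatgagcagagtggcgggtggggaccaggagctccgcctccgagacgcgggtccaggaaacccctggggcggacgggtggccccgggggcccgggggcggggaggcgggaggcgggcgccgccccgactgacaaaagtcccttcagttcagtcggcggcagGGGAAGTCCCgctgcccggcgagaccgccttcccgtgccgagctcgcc
Map3k14: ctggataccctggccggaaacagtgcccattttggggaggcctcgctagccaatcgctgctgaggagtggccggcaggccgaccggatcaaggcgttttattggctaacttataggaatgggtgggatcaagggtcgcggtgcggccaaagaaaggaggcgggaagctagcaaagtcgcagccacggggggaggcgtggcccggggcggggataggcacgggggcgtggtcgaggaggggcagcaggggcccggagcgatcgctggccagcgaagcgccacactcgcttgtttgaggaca

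The NF-κB consensus is 10 bases long and was searched on both strands, and overlapping matches were joined into 1 site. It occurred in 4 of the 8 members with a window, namely Nfkb2, Nfkbia, Tnfaip3 and Bcl3, against 9.55% of 27025 genes and 8.46% of 32851 windows of the same length. The Nfkb2 window shown has a site of 11 bases at -39 to -29 relative to the start and another at -11 to -2. The Nfkbia site lies at -29 to -20, the Tnfaip3 sites at -125 to -116 and -12 to -3, and the Bcl3 site at 3 to 12, just after the start. The windows of Ltbr, Tnfrsf1a, Map3k14 and Rela held no match. Among the other lists of the pathway, 9 of 11 canonical target genes with a window held a match (Csf1, Cxcl1, Cxcl10, Cxcl2, Gbp2, Il6, Irf1, Lif and Sod2), as did 1 of 9 lymphotoxin-dependent stromal genes (Madcam1). A match describes these letters and is not evidence of binding.

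The mRNA of the sort antigens Pdpn, Bst1 and Pdgfrb followed the gates of the sorted cells. Values of Enpep are not given here. Pdpn averaged 8.79, 8.16 and 9.11 on the log2 signal scale in lymph node PDPN+BP3+, lymph node PDPN+BP3- and thymus PDPN+BP3- cells, against 3.41 in lymph node PDPN- and 3.01 in thymus PDPN- cells. Bst1 had a mean of 8.74 in lymph node PDPN+BP3+ cells, against 2.18 to 3.30 elsewhere. Pdgfrb lay between 8.94 and 10.61 in all groups. Thymus PDPN+BP3- replicate 1 stood apart, its median over all transcript clusters being 3.58 where the remaining arrays had 3.77 to 3.885. The members' calls that use this array are also given without it. The T lineage marker list (7 genes measured) averaged 2.56 to 2.81 on the lymph node arrays, 3.34, 4.81 and 4.89 in thymus PDPN+BP3- cells and 4.91 to 5.54 in thymus PDPN- cells. In sorted bulk samples, a smaller number of cells that express a gene and less RNA per cell cannot be told apart.

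**Figure D1:**
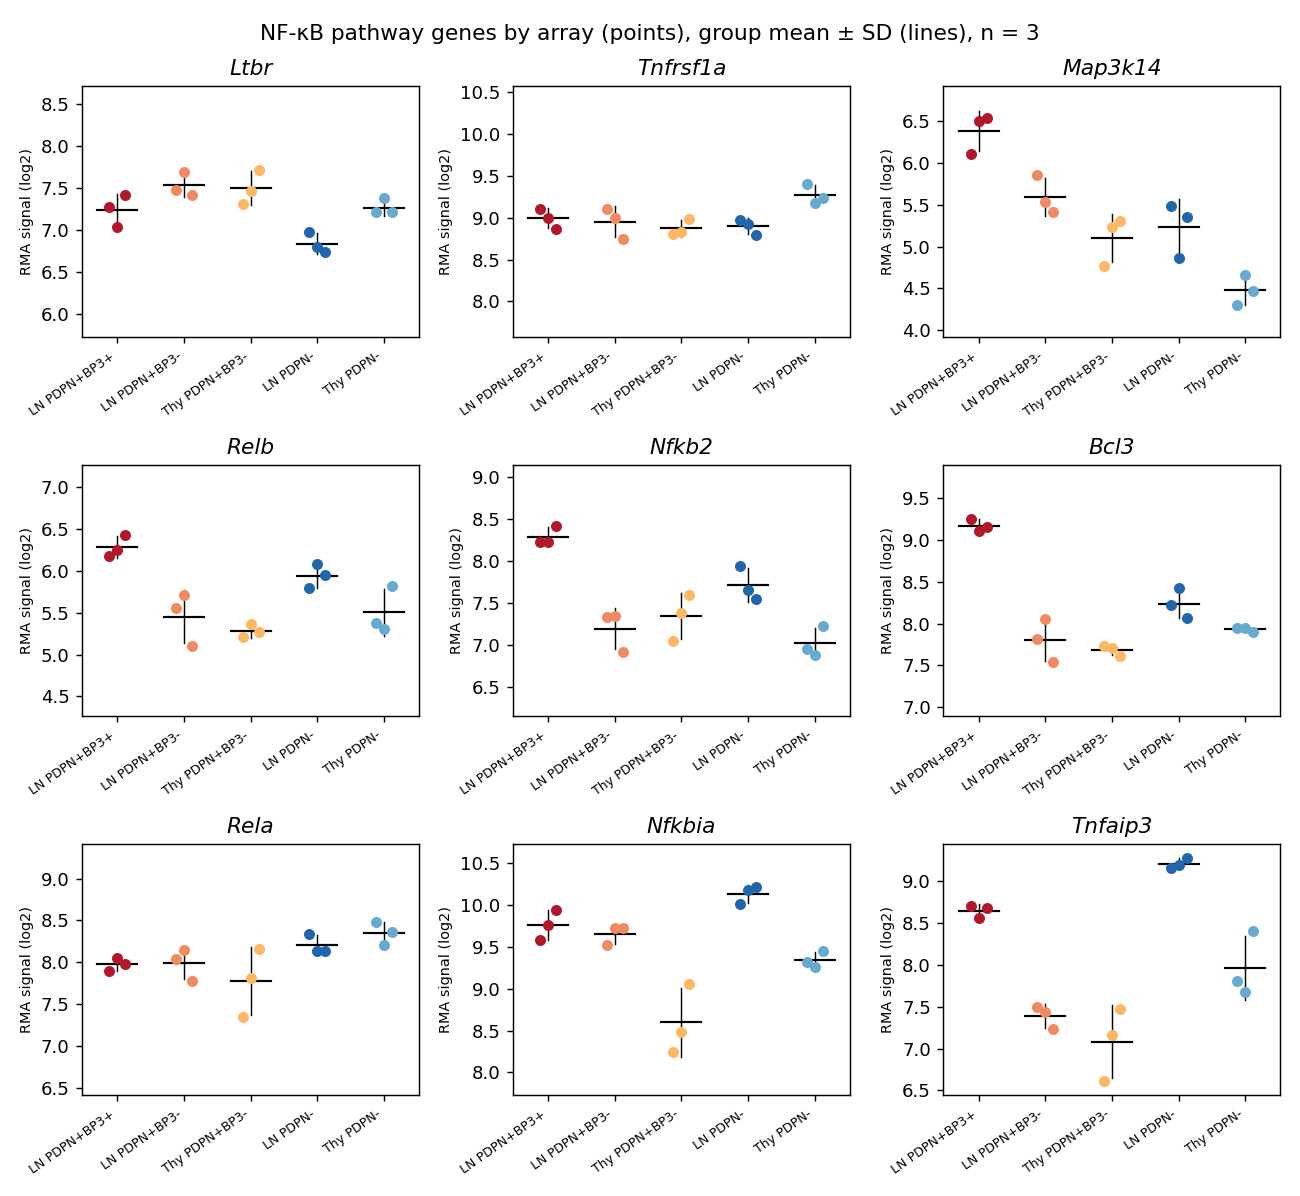
Log2 RMA signal (y axis, each panel spanning the same number of log2 units) of the 9 measured genes on each of the 15 arrays, by sorted group (LN lymph node, Thy thymus); points are arrays, horizontal lines group means and vertical lines ± SD (n = 3). Map3k14, Relb, Nfkb2 and Bcl3 are highest in lymph node PDPN+BP3+ cells, whereas Nfkbia and Tnfaip3 are highest in lymph node PDPN- cells; the group means of Tnfrsf1a (0.40) and Rela (0.58) span the least.

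The receptors had smaller ranges than most other members. Ltbr, the receptor for membrane lymphotoxin and LIGHT, had values of 7.27, 7.04 and 7.42 in the PDPN+BP3+ cells of lymph node, 7.48, 7.69 and 7.42 in its PDPN+BP3- cells and 6.98, 6.80 and 6.73 in its PDPN- cells. In thymus they were 7.31, 7.47 and 7.71 in PDPN+BP3- cells and 7.21, 7.38 and 7.21 in PDPN- cells. Only the lymph node PDPN- arrays stood apart, below every other array; each of the other neighbouring groups in the order overlapped. The group means of Ltbr spanned 0.69 log2 units. The median of such ranges was 0.48 over all genes, and 0.72 over genes whose mean lay above 3.91, the median over the 18718 genes. Tnfrsf1a, which encodes TNFR1, had values of 9.11, 9.0 and 8.87 in the PDPN+BP3+ cells of lymph node, 9.11, 9.0 and 8.75 in its PDPN+BP3- cells and 8.97, 8.93 and 8.79 in its PDPN- cells. The thymus arrays gave 8.80, 8.83 and 8.99 in PDPN+BP3- cells and 9.40, 9.17 and 9.24 in PDPN- cells. The thymus PDPN- arrays were the highest and did not overlap with any other group, and the remaining 4 groups overlapped one another. Its group means spanned 0.40, the smallest range of the members. Ltbr and Tnfrsf1a lie on chromosome 6 with 1 protein-coding gene, Scnn1a, between them, and their values over the 15 arrays (5 groups of 3) had a Pearson correlation of 0.07.

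Map3k14, which encodes NIK, the kinase of the alternative pathway, followed a graded order. It had values of 6.11, 6.50 and 6.54 in the PDPN+BP3+ cells of lymph node, 5.85, 5.53 and 5.41 in its PDPN+BP3- cells and 5.49, 4.86 and 5.35 in its PDPN- cells. Those of thymus were 4.77, 5.24 and 5.30 in PDPN+BP3- cells and 4.30, 4.66 and 4.47 in PDPN- cells. The lymph node PDPN+BP3+ arrays were all above, and the thymus PDPN- arrays all below, those of the other groups. Lymph node PDPN- overlapped with PDPN+BP3- cells of both tissues. NIK protein is governed largely by degradation, so these are levels of its mRNA only.

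The subunits of the alternative dimer were highest in lymph node PDPN+BP3+ cells. Nfkb2, the gene of p100 and p52, had values of 8.23, 8.23 and 8.42 in the PDPN+BP3+ cells of lymph node, 7.33, 7.34 and 6.91 in its PDPN+BP3- cells and 7.94, 7.65 and 7.55 in its PDPN- cells. In thymus they were 7.05, 7.38 and 7.60 in PDPN+BP3- cells and 6.95, 6.88 and 7.22 in PDPN- cells. Lymph node PDPN+BP3+ arrays lay above all others, and each other neighbouring group in the order (lymph node PDPN-, thymus PDPN+BP3-, lymph node PDPN+BP3-, thymus PDPN-) overlapped with the next. Relb had values of 6.18, 6.25 and 6.43 in the PDPN+BP3+ cells of lymph node, 5.55, 5.71 and 5.10 in its PDPN+BP3- cells and 5.79, 6.08 and 5.95 in its PDPN- cells. The thymus arrays gave 5.21, 5.37 and 5.27 in PDPN+BP3- cells and 5.38, 5.31 and 5.82 in PDPN- cells. The lymph node PDPN+BP3+ arrays were again above all others. Lymph node PDPN- arrays came next, overlapping with thymus PDPN- replicate 3 alone, and the other 3 groups overlapped one another. The group means of Nfkb2 spanned 1.28 and those of Relb 1.0.

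Bcl3, an atypical IκB protein that binds p50 and p52 homodimers in the nucleus, had the clearest separation of lymph node PDPN+BP3+ cells. Its values were 9.25, 9.10 and 9.15 in the PDPN+BP3+ cells of lymph node, 7.82, 8.05 and 7.54 in its PDPN+BP3- cells and 8.22, 8.42 and 8.07 in its PDPN- cells. Those of thymus were 7.73, 7.71 and 7.61 in PDPN+BP3- cells and 7.95, 7.95 and 7.90 in PDPN- cells. Lymph node PDPN+BP3+ arrays and, below them, lymph node PDPN- arrays did not overlap with any other group. Bcl3 and Relb both lie on chromosome 7, with 10 protein-coding genes between them. Over the 15 arrays the correlation of Bcl3 was 0.90 with Relb and 0.86 with Nfkb2, and that of Nfkb2 with Relb was 0.85. Most of the spread behind these values lies between the 5 groups.

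The canonical subunit had a smaller range than most other members. Rela had values of 7.90, 8.05 and 7.98 in the PDPN+BP3+ cells of lymph node, 8.04, 8.15 and 7.78 in its PDPN+BP3- cells and 8.34, 8.14 and 8.14 in its PDPN- cells. In thymus they were 7.35, 7.81 and 8.16 in PDPN+BP3- cells and 8.48, 8.21 and 8.36 in PDPN- cells. All neighbouring groups in its order overlapped, and its lowest value, 7.35, was that of thymus PDPN+BP3- replicate 1. Its group means spanned 0.58, where the median range over all genes was 0.48.

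The inhibitors Nfkbia and Tnfaip3 had another order, with lymph node PDPN- cells on top. Nfkbia, whose product IκBα retains RelA dimers in the cytoplasm, had values of 9.58, 9.76 and 9.94 in the PDPN+BP3+ cells of lymph node, 9.52, 9.72 and 9.72 in its PDPN+BP3- cells and 10.01, 10.18 and 10.21 in its PDPN- cells. The thymus arrays gave 8.25, 8.48 and 9.06 in PDPN+BP3- cells and 9.32, 9.26 and 9.45 in PDPN- cells. Every lymph node array was above every thymus array, and only the PDPN+ groups of the lymph node overlapped. Tnfaip3, whose product A20 edits ubiquitin chains and limits signalling from TNFR1, had values of 8.70, 8.56 and 8.68 in the PDPN+BP3+ cells of lymph node, 7.50, 7.44 and 7.23 in its PDPN+BP3- cells and 9.16, 9.19 and 9.28 in its PDPN- cells. Those of thymus were 6.61, 7.16 and 7.47 in PDPN+BP3- cells and 7.81, 7.68 and 8.40 in PDPN- cells. Only the PDPN+BP3- cells of lymph node and thymus overlapped, at the low end. Its group means spanned 2.13, the widest range of the members. A range of group means above 1 was found for 6 of the 9 members, for Relb only just. It was found for 31.8% of the genes whose mean lay above 3.91, the median over the 18718 genes, called the table's median below. All 9 members were among these brighter genes.

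In lymph node, PDPN+BP3+ cells had more mRNA of the NIK gene, of both alternative subunits, of Bcl3 and of Tnfaip3 than PDPN+BP3- cells. With limma and an adjusted p of 0.05 as the threshold, 5 of the 9 members were higher and 0 lower, where 16.2% of all genes passed (8.49% as higher, 7.74% as lower, and 24.3% of genes above the table's median). Bcl3 was higher by 1.36 ± 0.13 on the log2 scale (SE, n = 3 and 3, adjusted p = 6.13e-07), and Nfkb2 by 1.10 ± 0.16 (adjusted p = 9.21e-05). Relb was higher by 0.83 ± 0.16 (adjusted p = 0.00126) and Map3k14 by 0.79 ± 0.19 (adjusted p = 0.00718). Of the inhibitors, Tnfaip3 was higher by 1.26 ± 0.20 (adjusted p = 0.000175). In all 5 the 3 PDPN+BP3+ arrays lay above the 3 PDPN+BP3- arrays, a separation that 32.9% of all genes had in 1 direction or the other. Nfkbia differed by 0.11 (95% confidence interval -0.25 to 0.46), Rela by -0.01 (-0.36 to 0.34), Tnfrsf1a by 0.04 (-0.21 to 0.29) and Ltbr by -0.29 (-0.57 to -0.01, adjusted p = 0.183). The same 5 genes, and no other member, were called under every alternative, whichever array was left out.

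Other cell properties moved with this comparison. The immediate early and heat shock list averaged 9.66 to 9.83 in PDPN+BP3+ cells and 10.09 to 10.25 in PDPN+BP3- cells, with 6 of 10 genes lower and 0 higher. The endothelial list averaged 3.37 to 3.62 in PDPN+BP3+ cells and 4.29 to 4.64 in PDPN+BP3- cells, with 5 of 8 genes lower. All 7 fibroblast markers were lower in PDPN+BP3+ cells, and 4 of 8 pericyte and smooth muscle markers were higher. Their part in the differences of the NF-κB genes was not tested.

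**Figure D2:**
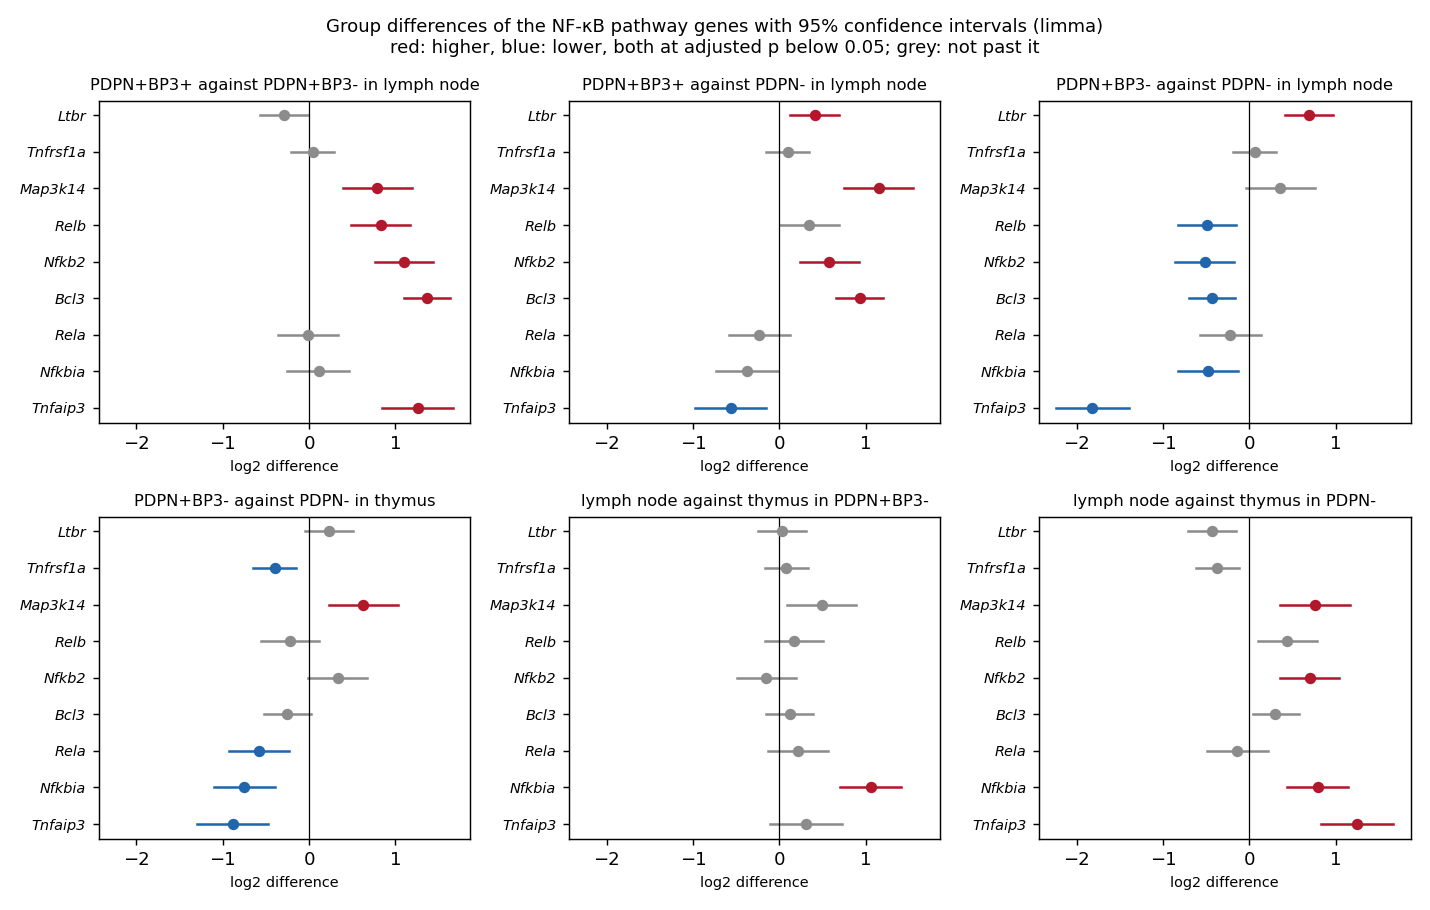
Log2 differences (x axis) of the 9 genes in the 6 pairwise comparisons, with 95% confidence intervals from limma (n = 3 arrays a group). Red points were higher and blue points lower at an adjusted p below 0.05, and grey points did not pass. PDPN+BP3+ cells stand 0.79 to 1.36 above lymph node PDPN+BP3- cells in 5 genes, and Tnfaip3 is 1.82 lower in lymph node PDPN+BP3- than in PDPN- cells.

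Against lymph node PDPN- cells, whose pericyte and smooth muscle markers averaged 9.40 to 9.48 against 7.29 to 7.41 in PDPN+BP3+ cells, PDPN+BP3+ cells had more Map3k14, Bcl3, Nfkb2 and Ltbr mRNA and less Tnfaip3 mRNA. Of the 9 members 4 were higher and 1 lower, where 27.3% of all genes passed (16.1% as higher, 11.2% as lower, and 42.3% of genes above the table's median). Map3k14 was higher by 1.15 ± 0.19 (adjusted p = 0.000184) and Bcl3 by 0.93 ± 0.13 (adjusted p = 2.73e-05). Nfkb2 was higher by 0.58 ± 0.16 (adjusted p = 0.012) and Ltbr by 0.41 ± 0.13 (adjusted p = 0.0295). Tnfaip3 was lower, at -0.56 ± 0.20 (adjusted p = 0.0422). Relb differed by 0.35 (adjusted p = 0.132), Rela by -0.23 (adjusted p = 0.365), Tnfrsf1a by 0.10 (adjusted p = 0.631) and Nfkbia by -0.37 (adjusted p = 0.115). Nfkbia was called as lower with arrays shifted to 1 median (-0.46), with the replicate number as a block (-0.37, adjusted p = 0.0482) and without thymus PDPN+BP3- replicate 3 (-0.37, adjusted p = 0.0288), its adjusted p lying between 0.0221 and 0.341. The calls of Map3k14 and Bcl3 held under every alternative. That of Nfkb2 was lost without lymph node PDPN- replicate 3 (0.50, adjusted p = 0.0561) or PDPN+BP3+ replicate 3 (0.52, adjusted p = 0.0526), its adjusted p lying between 0.00569 and 0.0561 over all alternatives. That of Ltbr was lost without lymph node PDPN- replicate 2 or 3 or PDPN+BP3+ replicate 1 or 3, or with arrays shifted to 1 median (0.32 to 0.39, adjusted p = 0.0645 to 0.133, against 0.0159 at the lowest). That of Tnfaip3 was lost without any array of the 2 groups, and without thymus PDPN+BP3- replicate 2 or lymph node PDPN+BP3- replicate 1 or 2, its adjusted p lying between 0.00329 and 0.127. The number of members past the threshold was then 2 without lymph node PDPN- replicate 3 or PDPN+BP3+ replicate 3, and 3 without lymph node PDPN- replicate 2 or PDPN+BP3+ replicate 1. The immediate early and heat shock list was lower in PDPN+BP3+ cells in 6 of 10 genes and higher in 0, all 8 pericyte and smooth muscle markers were lower and 4 of 7 fibroblast markers higher. Their part in these differences was not tested. Of all genes called, 58.9% were higher, and 47.8% with arrays shifted to 1 median.

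Lymph node PDPN+BP3- cells had less Tnfaip3, Nfkb2, Relb, Nfkbia and Bcl3 mRNA and more Ltbr mRNA than PDPN- cells. This comparison shares its arrays with the preceding comparisons and is not independent of them. Of the 9 members 1 was higher and 5 lower, where 23.1% of all genes passed (13.4% as higher, 9.79% as lower, and 35.8% of genes above the table's median). Ltbr was higher by 0.69 ± 0.13 (adjusted p = 0.000802). Tnfaip3 was lower, at -1.82 ± 0.20 (adjusted p = 2.32e-06), the largest difference of any member in the 6 pairwise comparisons. These calls held under every alternative. The other 4 calls were smaller differences, -0.52 for Nfkb2 (adjusted p = 0.0267), -0.49 for Relb (adjusted p = 0.0374), -0.48 for Nfkbia (adjusted p = 0.0469) and -0.43 for Bcl3 (adjusted p = 0.0189).

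These 4 calls depended on which arrays were kept. Bcl3 was not called without lymph node PDPN- replicate 2 (-0.34) or PDPN+BP3- replicate 3 (-0.30), or when only the arrays compared were fitted, its adjusted p lying between 0.00516 and 0.107. Nfkb2 was not called without lymph node PDPN- replicate 1 (-0.41) or PDPN+BP3- replicate 3 (-0.38), its adjusted p lying between 0.0043 and 0.136. Relb was not called without lymph node PDPN- replicate 2 or 3 or PDPN+BP3- replicate 1 or 3, nor in 2 of the other fits, its difference lying between -0.62 and -0.31 and its adjusted p between 0.0141 and 0.193. Nfkbia stayed called in every fit of all 15 arrays and in that of the compared arrays, but of the fits without 1 array only in those without thymus PDPN+BP3- replicate 1 or 3, lymph node PDPN- replicate 1 or PDPN+BP3+ replicate 3, its adjusted p lying between 0.00743 and 0.162 over all alternatives. The number of members past the threshold was 2 without lymph node PDPN+BP3- replicate 3 and 3 without lymph node PDPN- replicate 2. The endothelial list was higher in PDPN+BP3- cells in 5 of 8 genes and lower in 0, all 7 fibroblast markers were higher and all 8 pericyte and smooth muscle markers lower. Their part in these differences was not tested.

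In thymus the same comparison, PDPN+BP3- against PDPN- cells, gave 1 member higher and 4 lower, where 28.5% of all genes passed (10.3% as higher, 18.2% as lower, and 44.3% of genes above the table's median, whose median difference was -0.23). Map3k14 was higher by 0.63 ± 0.19 (adjusted p = 0.0194). Tnfaip3 was lower, at -0.88 ± 0.20 (adjusted p = 0.00251), as was Nfkbia, at -0.75 ± 0.17 (adjusted p = 0.00255), and both calls held under every alternative, without thymus PDPN+BP3- replicate 1 at -0.65 (adjusted p = 0.0126) for Tnfaip3 and -0.57 (adjusted p = 0.0143) for Nfkbia. Rela (-0.58, adjusted p = 0.0145) and Tnfrsf1a (-0.40, adjusted p = 0.0176) were lower as well. Ltbr (0.23, adjusted p = 0.227), Nfkb2 (0.33, adjusted p = 0.153), Relb (-0.22, adjusted p = 0.357) and Bcl3 (-0.25, adjusted p = 0.164) did not pass.

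Thymus PDPN+BP3- replicate 1 bore on this comparison. Without it Rela was at -0.36 (adjusted p = 0.0773) and Tnfrsf1a at -0.36 (adjusted p = 0.0575), and Nfkb2 was called as higher, at 0.47 (adjusted p = 0.0442). Rela was also not called without thymus PDPN- replicate 1 or when only the arrays compared were fitted, its adjusted p lying between 0.00122 and 0.0773. Tnfrsf1a was also not called without thymus PDPN- replicate 1, after cyclic loess (-0.25) or with arrays shifted to 1 median (-0.34), its adjusted p lying between 0.0123 and 0.122. Map3k14 was at 0.79 (adjusted p = 0.00574) without it, and was not called without thymus PDPN+BP3- replicate 2 or 3 or thymus PDPN- replicate 1 or 3, its difference lying between 0.53 and 0.88 and its adjusted p between 6e-04 and 0.0865. After cyclic loess, Ltbr (0.45, adjusted p = 0.0106, the lowest of its alternatives) and Nfkb2 (0.54, adjusted p = 0.0094, likewise) were called as higher. Of the members, 2 passed without thymus PDPN- replicate 1. The scaling also moved the calls over all genes, of which 36.0% were higher, and 55.0% after cyclic loess. The immediate early and heat shock list was lower in PDPN+BP3- cells in 4 of 10 genes, at a mean of 9.38 to 9.74 against 9.82 to 10.01, the T lineage list was lower in 3 of 7 and the epithelial list in 3 of 8. All 8 pericyte and smooth muscle markers were lower (5.80 to 5.98 against 9.79 to 9.89) and all 7 fibroblast markers higher (9.88 to 10.04 against 5.23 to 5.64). Their part in the differences of the members was not tested.

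The tissues were compared within each sort gate. In PDPN+BP3- cells 1 of the 9 members passed, higher in lymph node, where 17.1% of all genes passed (11.8% as higher, 5.29% as lower, and 25.5% of genes above the table's median, whose median difference was 0.21). It was Nfkbia, higher by 1.06 ± 0.17 (adjusted p = 0.000249), and by 0.88 (adjusted p = 0.00112) without thymus PDPN+BP3- replicate 1, its adjusted p lying between 5.99e-06 and 0.0112 over all alternatives. The differences of the other 8 members lay between -0.15 (Nfkb2) and 0.49 (Map3k14, 95% confidence interval 0.09 to 0.89, adjusted p = 0.0883). Beside this call, 8 of 10 immediate early and heat shock genes were higher and 0 lower in lymph node, at a mean of 10.09 to 10.25 against 9.38 to 9.74 in thymus. Endothelial markers were higher in 5 of 8 genes and lower in 0 (4.29 to 4.64 against 3.18 to 3.52), and pericyte and smooth muscle markers higher in 6 and lower in 2 of 8 (6.51 to 6.91 against 5.80 to 5.98). Their part in the difference of Nfkbia was not tested. Of all genes called here 69.1% were higher in lymph node, 45.7% after cyclic loess and 50.2% with arrays shifted to 1 median, which moved the median difference of all genes to -0.09, against 0.04 as deposited.

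In PDPN- cells 4 of the 9 members were higher in lymph node than in thymus and 0 lower, where 9.61% of all genes passed (4.42% as higher, 5.19% as lower, and 14.2% of genes above the table's median). Tnfaip3 was higher by 1.25 ± 0.20 (adjusted p = 0.000415), Nfkbia by 0.79 ± 0.17 (adjusted p = 0.00489), Map3k14 by 0.76 ± 0.19 (adjusted p = 0.016) and Nfkb2 by 0.70 ± 0.16 (adjusted p = 0.00964). The arrays of the tissues did not overlap in any of the 4, as in 24.7% of all genes. The receptors lay on the other side of 0, Ltbr at -0.43 (adjusted p = 0.0515, between 0.0329 and 0.182 over all alternatives) and Tnfrsf1a at -0.37 (adjusted p = 0.0582, between 0.0426 and 0.22), and neither passed. Ltbr was called without thymus PDPN+BP3- replicate 1 or 3, lymph node PDPN- replicate 1 or PDPN+BP3+ replicate 2 (-0.50 to -0.43) or with arrays shifted to 1 median, and Tnfrsf1a without thymus PDPN+BP3- replicate 1 or lymph node PDPN+BP3- replicate 3 or with a trended and robust prior (-0.37 in each). Map3k14 was not called without thymus PDPN- replicate 1 or 3 or lymph node PDPN- replicate 1 or 3, its adjusted p lying between 0.00284 and 0.0829. Nfkb2 was not called without thymus PDPN- replicate 2 (0.63, adjusted p = 0.0519, and down to 0.00212 under another alternative). Relb, at 0.44 (adjusted p = 0.111), was called without thymus PDPN- replicate 3 alone (0.60, adjusted p = 0.035, and up to 0.343 under another alternative). The immediate early and heat shock list had 1 of 10 genes higher in lymph node. Fibroblast markers were higher there in 6 of 7 genes and lower in 1, at a mean of 7.12 to 7.17 against 5.23 to 5.64. T lineage markers were lower in lymph node in 6 of 7 genes and epithelial markers in 6 of 8, in both sort gates, and their part in these differences was not tested.

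The difference of PDPN+BP3- from PDPN- cells was itself compared between lymph node and thymus, as an interaction. It passed for 2 of the 9 members, where 12.7% of all genes passed (8.67% with a positive and 4.05% with a negative interaction). Of genes above the table's median 19.3% passed, 14.3% with a positive and 5.03% with a negative interaction. Nfkb2 differed by -0.52 in lymph node and 0.33 in thymus, an interaction of -0.85 ± 0.23 (adjusted p = 0.0216). Tnfaip3 differed by -1.82 in lymph node and -0.88 in thymus, an interaction of -0.94 ± 0.28 (adjusted p = 0.0357). Ltbr (0.46, adjusted p = 0.125) and Tnfrsf1a (0.45, adjusted p = 0.0904) had interactions of the opposite sign that did not pass. Without thymus PDPN+BP3- replicate 1, Nfkb2 was at -0.99 (adjusted p = 0.00634) and Tnfaip3 at -1.17 (adjusted p = 0.00367). Neither member was called without thymus PDPN- replicate 1 or 2. Without lymph node PDPN+BP3- replicate 3, Nfkb2 was at -0.71 (adjusted p = 0.0536), Tnfaip3 at -0.86 (adjusted p = 0.0794) and Tnfrsf1a was called, at 0.56 (adjusted p = 0.0388). Tnfaip3 was also not called without thymus PDPN+BP3- replicate 2 or 3, lymph node PDPN- replicate 2 or 3, lymph node PDPN+BP3- replicate 2, or when only the arrays compared were fitted. Over all alternatives the adjusted p of Nfkb2 lay between 0.00152 and 0.0573 and that of Tnfaip3 between 0.00367 and 0.0956. Of all genes called here 68.2% had a positive interaction, 41.5% after cyclic loess and 53.2% with arrays shifted to 1 median. Among 7 fibroblast markers 5 passed with a negative and 0 with a positive interaction. Pericyte and smooth muscle markers passed with a positive interaction in 7 of 8 genes and endothelial markers in 4 of 8, with 0 negative in both lists. The part of these lists in the interactions of Nfkb2 and Tnfaip3 was not tested.

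**Figure D3:**
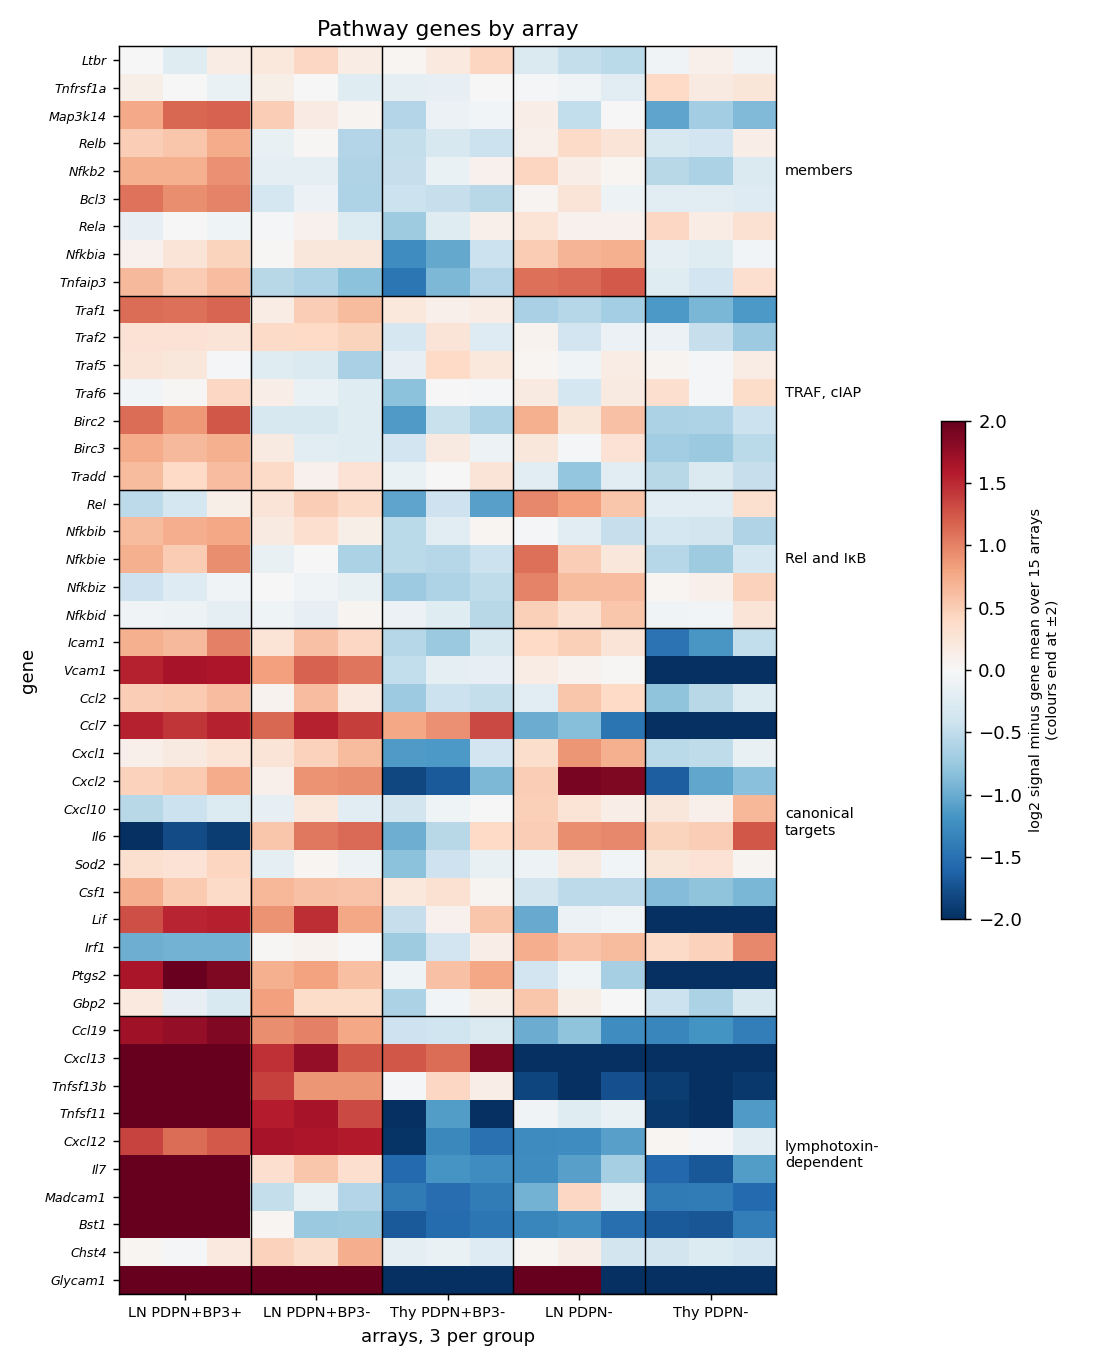
Log2 signal of each gene minus its mean over the 15 arrays (colour, ending at ±2), with genes in rows by list and arrays in columns, 3 for each group (LN lymph node, Thy thymus). Map3k14, Nfkb2, Bcl3, Birc2 and Birc3 are highest in the 3 lymph node PDPN+BP3+ columns, whereas Il6 and Irf1 are lowest there. Bst1, in the lymphotoxin-dependent list, is a sort antigen.

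Upstream of the members, some ligands and adaptors also differed between the PDPN+ groups of lymph node. In this comparison 16.2% of all genes passed (8.49% as higher, 7.74% as lower), and 24.3% of genes above the table's median. No list was tested as a whole. Of 8 ligands of the TNF superfamily 2 were higher and 1 lower, with a median difference of 0.02 against 0.01 over all genes. Ltb, the β chain of membrane lymphotoxin, had 4.86, 5.01 and 5.14 in PDPN+BP3+ cells against 3.34, 2.95 and 3.03 in PDPN+BP3- cells, higher by 1.90 (adjusted p = 2.11e-07). Its PDPN+BP3- values lie below 3.80, the median over all transcript clusters, and were not checked against background. Tnfsf13b, the B cell survival factor BAFF, was higher by 1.62 (adjusted p = 9.35e-07). Lta and Tnf were not called in this comparison. Of 7 TRAF and cIAP adaptors 4 were higher and 0 lower, with a median of 0.54, and 0 of 8 genes of the IκB kinase complex and its upstream kinases were called by limma, 1 having an unadjusted p below 0.05. After cyclic loess, with arrays shifted to 1 median, over genes above the table's median, in a fit of the compared arrays and without thymus PDPN+BP3- replicate 1 or 3, Ikbkb, the gene of the kinase IKKβ, was called as higher (0.50 to 0.55, adjusted p = 0.00775 to 0.0441), against 0.55 (adjusted p = 0.0703) in the fit as designed; it is named here after its values were seen. The adaptors were Birc2 (1.37, adjusted p = 1.16e-05) and Birc3 (0.79, adjusted p = 0.000985), whose products cIAP1 and cIAP2 take part in the degradation of NIK, Traf1 (0.71, adjusted p = 0.000364) and Traf5 (0.54, adjusted p = 0.0168).

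Some other receptors and regulators were called in the same comparison, where 16.2% of all genes and 24.3% of genes above the table's median passed. Of 11 other receptors of the superfamily 4 were higher and 1 lower: Tnfrsf1b, which encodes TNFR2, had 7.68, 7.36 and 7.46 in PDPN+BP3+ cells against 6.10, 5.87 and 5.42 in PDPN+BP3- cells (1.70 higher, adjusted p = 5.02e-06), and Tnfrsf12a, the TWEAK receptor, was lower, at -1.59 (adjusted p = 4.7e-05). Tnfrsf1b averaged 2.61 in lymph node PDPN- cells, where PDPN+BP3- cells were 3.19 higher (adjusted p = 1.81e-09). Of 5 other NF-κB subunits and IκB proteins, Nfkbie (0.97, adjusted p = 0.0022) and Nfkbib (0.50, adjusted p = 0.0245) were higher and Rel, the gene of c-Rel, was lower (-0.63, adjusted p = 0.0446). Only 1 of the 5 was called as higher without PDPN+BP3+ replicate 2 or 3 or PDPN+BP3- replicate 1 or 3. Of 8 other negative regulators 2 were higher, Tnip1 (1.19, adjusted p = 2.73e-06), whose product binds A20, and Otulin (0.48, adjusted p = 0.014), and 1 without PDPN+BP3+ replicate 1 or PDPN+BP3- replicate 1 or 2.

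Of the downstream lists, canonical target genes did not move as a block with PDPN+BP3+, whereas most lymphotoxin-dependent genes were higher. The share of all genes called between these groups was 16.2%, and 24.3% of genes above the table's median. Of 14 canonical NF-κB target genes 2 were higher (Ptgs2 and Vcam1) and 2 lower (Il6 and Irf1), with a median of 0.04 against 0.01 over all genes. The counts were 3 higher and 3 lower after cyclic loess, with arrays shifted to 1 median and without thymus PDPN+BP3- replicate 1. Il6 had 5.36, 6.07 and 5.96 in PDPN+BP3+ cells against 8.42, 8.92 and 9.0 in PDPN+BP3- cells, a difference of -2.98 (adjusted p = 1.94e-06). Of 10 lymphotoxin-dependent stromal genes, 6 were higher and 1 lower, with a median of 1.28, and 1 of the 6 is the sort antigen Bst1. The lower gene, Chst4, was not called without PDPN+BP3+ replicate 1 or 2 or PDPN+BP3- replicate 1 or 3. In this list 7 were higher and 2 lower after cyclic loess, with arrays shifted to 1 median and without thymus PDPN+BP3- replicate 1. Madcam1, an addressin, was higher by 3.95 (adjusted p = 7.09e-09), Il7, a survival factor for T cells, by 2.97 (adjusted p = 2.22e-09), the B cell chemokine Cxcl13 by 1.84 (adjusted p = 1.98e-05) and the T cell chemokine Ccl19 by 0.86 (adjusted p = 4.52e-05). Tnfsf13b is also on this list.

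**Figure D4:**
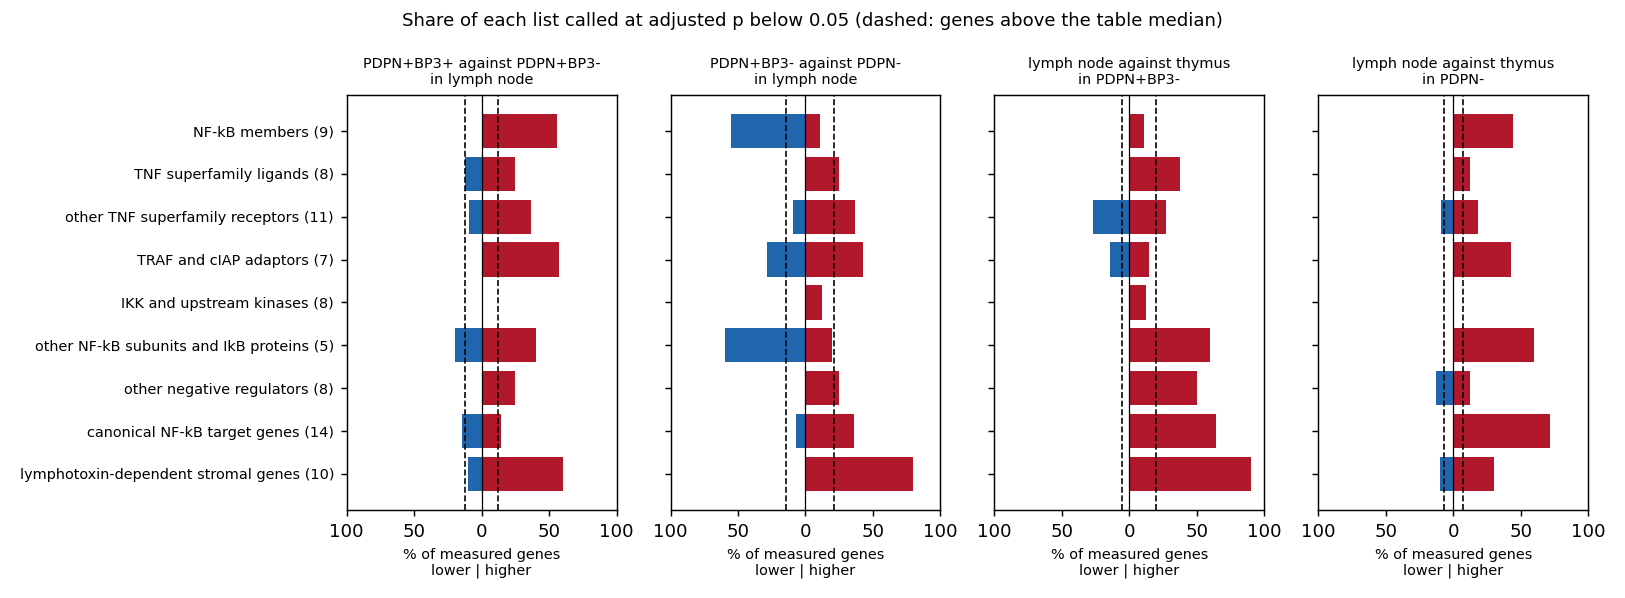
Share of each list's measured genes (in percent, number measured in brackets) called higher (red, to the right) or lower (blue, to the left) at an adjusted p below 0.05 in 4 comparisons; dashed lines give the shares of genes above the table's median. No list was tested as a whole. Canonical target genes are called higher in lymph node than in thymus in 9 of 14 (PDPN+BP3-) and 10 of 14 (PDPN-), and Bst1, a sort antigen, is counted in the lymphotoxin-dependent list.

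Between the tissues, most canonical target genes were higher in lymph node in both sort gates. The 2 comparisons share no array, but they share the estimate of the spread and the difference in pool size between the tissues, so they are not independent. In PDPN- cells 10 of 14 were higher and 0 lower, with a median of 0.92 against -0.01 over all genes. There 4.42% of all genes were called higher, and 7.06% of genes above the table's median, whose median difference was -0.06. Vcam1, the adhesion molecule for lymphocytes, had 8.08, 8.0 and 7.95 in lymph node PDPN- cells against 5.34, 5.39 and 5.77 in thymus PDPN- cells, higher by 2.51 (adjusted p = 3.6e-09). Cxcl2 was higher by 2.60 (adjusted p = 8.82e-05), Ptgs2 by 2.19 (adjusted p = 2.69e-06) and Icam1 by 1.42 (adjusted p = 0.000123). In PDPN+BP3- cells 9 of 14 were higher and 0 lower, with a median of 0.77 against 0.04 over all genes. Here 11.8% of all genes were called higher, and 19.9% of genes above the table's median, whose median difference was 0.21. The count was 7 of 14 with a median of 0.61 without thymus PDPN+BP3- replicate 1, and 7 of 14 with a median of 0.59 after cyclic loess. In the fit as designed, Cxcl1 was higher by 1.34 (adjusted p = 0.000111) and Cxcl2 by 2.11 (adjusted p = 0.000391) in PDPN+BP3- cells. The immediate early and heat shock list was higher in lymph node in 8 of 10 genes in PDPN+BP3- cells and in 1 of 10 in PDPN- cells. Fibroblast markers were higher in lymph node in 6 of 7 genes in PDPN- cells, and endothelial markers in 5 of 8 and pericyte and smooth muscle markers in 6 of 8 in PDPN+BP3- cells. The part of these lists in the differences of the target genes was not tested.

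The remaining subunits, IκB proteins and adaptors differed between the groups as well. In PDPN- cells Nfkbie (1.15, adjusted p = 0.00109), Rel (0.82, adjusted p = 0.0159) and Nfkbiz (0.54, adjusted p = 0.017) were higher in lymph node than in thymus, and only 1 of the list's 5 genes was called as higher without thymus PDPN- replicate 1 or 2 or lymph node PDPN- replicate 1. Nfkbiz, an inducible nuclear IκB protein, was lower in PDPN+BP3- than in PDPN- cells in lymph node (-0.82, adjusted p = 0.000228) and in thymus (-0.82, adjusted p = 0.000201). Birc2 and Birc3, whose products control NIK, were higher in lymph node than in thymus PDPN- cells by 1.08 (adjusted p = 0.000327) and 0.82 (adjusted p = 0.00154). Tnfsf11, the ligand RANKL, was higher in lymph node in PDPN+BP3- cells by 3.60 (adjusted p = 4.78e-07) and in PDPN- cells by 1.57 (adjusted p = 0.00331), its thymus values lying at or below 3.58.

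The genes most like each member over the 15 arrays (5 groups of 3) give a description of the pattern, with no test. Nfkbia was closest to Pnrc1 (Pearson r = 0.984), Rab20 (0.954) and Cxcl1 (0.943), the last of them itself on the list of canonical targets. Tnfaip3 was closest to Itga6 (0.960), Pik3r3 (0.951) and Tmem86a (0.942). Bcl3 was closest to Prim1 (0.949), Rps6ka6 (0.949) and Nnat (0.948), and Relb also to Prim1 (0.913), then Dnmt1 (0.905) and Tk1 (0.902). Nfkb2 was closest to Kcnh2 (0.947), Adgrl3 (0.947) and Tnfsf15 (0.939), and Map3k14 to Slc1a5 (0.963), Spib (0.954) and Arrb1 (0.950). The closest neighbours of the other members were Slc44a1 for Ltbr (0.909), Ankmy2 for Tnfrsf1a (0.890) and Isca1 for Rela (0.941). Among the members, Tnfaip3 correlated with Nfkbia at 0.81 and with Ltbr at -0.75.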

How the data were processed

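The deposited values were RMA signals on a log2 scale, made by the authors with RMA in the Affymetrix Expression Console per the submitters' processing notes; the sources used here give neither versions nor a genome build. Per the labels' protocols, RNA was amplified by whole transcriptome amplification (Ovation Pico WTA V2). Base 2 is an inference, the log base being unnamed, from a range of 1.07 to 12.07 and a median of 3.80. Of 24758 transcript clusters, 20844 had 1 gene symbol in the array annotation, 1735 several and 2179 none, and gene identifiers placed 20817 of the 20844 in the RefSeq gene table. For the 1230 genes with more than 1 row, the row with the highest mean was kept, which left 18718 genes. No filter on low values was applied, and no measure of background was used. The number of arrays limits the precision.

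Differences were computed with limma 3.58.1 in R 4.3.3 (lmFit and eBayes), with 1 mean per group over all 15 arrays (residual degrees of freedom 10, prior 5.50), for 6 pairwise comparisons and 1 interaction. P-values were adjusted by Benjamini-Hochberg over all genes of a comparison, with a threshold of 0.05, and the procedure was tested on simulated data. Alternatives were cyclic loess, arrays shifted to 1 median, genes above the table's median, the mean of a gene's rows, a trended and robust prior, a fit of the compared arrays only, replicate number as a block, and each array left out in turn. Every member was always named; from each other list of the pathway, up to 4 genes with the smallest adjusted p past the threshold in a comparison could be named. Lta, Tnf, Chst4 and Tnfsf11 in the tissue comparison stand beside them for their place in the pathway. Members and lists were chosen with earlier results of these data known. Genes of the lists that were not analysed here include Tnfsf12, Traf3, Ripk1, Chuk, Ccl21a, Enpp2, Lck, Rag1, Hspa1a and Hspa1b. Promoter windows came from RefSeq (GRCm38.p6), and a script searched them for the NF-κB consensus.

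Replicate numbers in the labels are shared between groups. Deviations of same-numbered arrays from their group means correlated at -0.174 to 0.288 across genes (median -0.01 over 30 pairs). Those of differently numbered arrays correlated at -0.305 to 0.223 (median 0.008 over 60 pairs), so the numbers were not taken to pair the samples. These medians mix both tissues. In lymph node, same-numbered arrays had 0.154, 0.074 and 0.064 between PDPN+BP3+ and PDPN+BP3- cells. Between PDPN+BP3- and PDPN- cells they had 0.288, -0.03 and 0.18, and between PDPN+BP3+ and PDPN- cells -0.017, 0.081 and -0.066. Pools shared between gates of lymph node can therefore not be excluded. Between thymus PDPN+BP3- and PDPN- cells, same-numbered arrays had -0.161, -0.174 and -0.142, and differently numbered arrays -0.002 to 0.171. Whether thymus pools were shared under other numbers was not tested.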

Additional observations from a re-analysis of the deposited data

Results flagged for a closer look

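The difference of PDPN+BP3- from PDPN- cells varied with the tissue for 2 of the 9 members, by an interaction term in limma. It passed for 12.7% of all genes and for 19.3% of genes above the table's median. Nfkb2, the gene of p100 and p52, differed by -0.52 in lymph node and 0.33 in thymus, an interaction of -0.85 ± 0.23 (SE, adjusted p = 0.0216). Tnfaip3, the gene of A20, was lower in PDPN+BP3- cells in both tissues, at -1.82 in lymph node and -0.88 in thymus, an interaction of -0.94 ± 0.28 (adjusted p = 0.0357). Both interactions were lost without thymus PDPN- replicate 1 or 2, with adjusted p of 0.0559 and 0.0573 for Nfkb2 and of 0.0937 and 0.0956 for Tnfaip3. Without lymph node PDPN+BP3- replicate 3 they were lost too (adjusted p = 0.0536 for Nfkb2 and 0.0794 for Tnfaip3). Tnfaip3 was also lost without thymus PDPN+BP3- replicate 2 or 3, lymph node PDPN- replicate 2 or 3 or lymph node PDPN+BP3- replicate 2, and in a fit of the compared arrays only (adjusted p = 0.0625 to 0.0729). The signs remained in each case. Cell type markers had interactions as well, negative in 5 of 7 fibroblast markers and positive in 7 of 8 pericyte and smooth muscle markers. Their part in the interactions of Nfkb2 and Tnfaip3 was not tested.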

How the results depend on the processing

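Over all alternatives the 5 calls between the PDPN+ groups of lymph node and the call of Nfkbia between the tissues in PDPN+BP3- cells were kept. So were those of Tnfaip3 (adjusted p up to 0.0038) and Nfkbia (up to 0.0256) between the tissues in PDPN- cells. In lymph node, Map3k14 and Bcl3 stayed called between PDPN+BP3+ and PDPN- cells, and Ltbr and Tnfaip3 between PDPN+BP3- and PDPN- cells. Tnfaip3 and Nfkbia stayed called in thymus. All other calls of members were lost under at least 1 alternative. Leaving out each array in turn gave 5 to 5 members past the threshold between the PDPN+ groups of lymph node, 2 to 6 between PDPN+BP3+ and PDPN- cells, and 2 to 6 between PDPN+BP3- and PDPN- cells there. It gave 2 to 5 between PDPN+BP3- and PDPN- cells in thymus, 1 to 1 between the tissues in PDPN+BP3- cells, 3 to 6 in PDPN- cells and 0 to 2 for the interaction. A fit of the compared arrays only gave 1 member for the interaction. In these cases fewer arrays entered the fit.

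The replicate numbers were also used as a block, though the labels tie no number to a shared experiment. After removal of the group means, same-numbered arrays of different groups correlated at -0.174 to 0.288 (median -0.01) and arrays of different numbers at -0.305 to 0.223 (median 0.008). The mean correlation with the arrays of each number in the other groups was highest for the own number in 8 of 15 arrays. With the replicate block, 5, 6, 6, 5, 1, 4 and 2 members passed (lymph node PDPN+BP3+ against PDPN+BP3-, PDPN+BP3+ against PDPN-, PDPN+BP3- against PDPN-, the same in thymus, the tissues in PDPN+BP3- and in PDPN- cells, and the interaction), the added call being Nfkbia between lymph node PDPN+BP3+ and PDPN- cells (-0.37, adjusted p = 0.0482). The block changed no other call of a member. Since it fits 1 effect per number over both tissues, it does not test pools shared between gates of lymph node alone.

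Signs turned only for differences that were not called. Between the tissues in PDPN+BP3- cells, cyclic loess gave -0.06 for Bcl3, -0.17 for Ltbr, -0.08 for Relb and -0.06 for Tnfrsf1a, and shifting arrays to 1 median gave -0.01 for Bcl3, -0.09 for Ltbr and -0.05 for Tnfrsf1a. Without 1 array, Bcl3 lay between 0 and 0.25 and Ltbr between -0.06 and 0.14 there. In thymus, cyclic loess gave 0.04 for Relb. Between lymph node PDPN+BP3- and PDPN- cells, Tnfrsf1a was at -0.01 with arrays shifted to 1 median and between -0.02 and 0.16 without 1 array. Between the PDPN+ groups of lymph node, Rela lay between -0.12 and 0.07 and Tnfrsf1a between -0.06 and 0.12 without 1 array. The cause of these changes was not tested.

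The values are mRNA signals of pooled cells and bear neither on protein processing nor on nuclear NF-κB. With 3 arrays a group, differences under about 0.40 on the log2 scale were rarely called. Levels below 3.80, the median over all transcript clusters, were not checked against background.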
